A study of Rattus with 7 samples.

Results

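The 10 genes described here are protein genes of the mitochondrial genome: Mt-nd1, Mt-nd2, Mt-nd3, Mt-nd4 and Mt-nd5 of respiratory complex I, Mt-cyb of complex III, Mt-co1, Mt-co2 and Mt-co3 of complex IV, and Mt-atp6 of ATP synthase. They were listed by symbol and Ensembl identifier, a rule with no measured value in it, and are 10 of the 23092 identifiers counted. The files list identifiers only. The symbols of these 10 came with the choice of the genes and were not checked against an annotation of the build. All 10 passed the filter on low counts, as did 13258 identifiers in total. Poly(A) RNA was taken from ventricular cardiomyocytes, isolated by collagenase perfusion of hearts from wild-type male Wistar rats. The age given is 8 weeks, and the hearts were taken after the 14 days described next. The hypergravity group (n = 3) was centrifuged at 4 g for 14 days, 8 h per day, and the control group (n = 4) stayed in the same room without centrifugation. The labels number the libraries 4 to 7 in control and 4 to 6 under hypergravity. The study's methods describe replicates from separate hearts, more in each group than the libraries used here. Its section on statistics gives smaller numbers than that description. Defining markers of cardiomyocytes and of other heart cells could not be checked, because no other identifier was paired with a name here.

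The mitochondrial genome encodes core subunits of the respiratory chain, and the nucleus encodes the remaining subunits. Complex I passes electrons from NADH to ubiquinone, complex III passes them on to cytochrome c, complex IV gives them to oxygen, and ATP synthase uses the proton gradient that these complexes build. All 10 genes lie on the same strand and are copied as long precursors that carry several genes. The single messages are cut out of these, mostly at transfer RNAs between them. After that cut each message has its own processing and lifetime, and most receive a short poly(A) tail. Cardiomyocytes are packed with mitochondria, so these messages are abundant in heart RNA. No protein or genome sequence of these genes was used here.

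The 10 genes together held 39.1%, 47.0%, 45.8% and 44.7% of the gene counts in control replicates 4, 5, 6 and 7, and 45.6%, 52.0% and 49.4% in hypergravity replicates 4, 5 and 6. The mean was 44.2% ± 3.50 (SD, n = 4) in control and 49.0% ± 3.22 (SD, n = 3) under hypergravity, a difference of 4.81 percentage points. The groups overlapped: control replicate 5 lay above hypergravity replicate 4, and control replicate 4 lay below all other libraries. Between the libraries that share a number, the hypergravity library was higher by 6.45, 4.93 and 3.55 percentage points for numbers 4, 5 and 6. The difference was 3.13 points without control replicate 4, 3.30 points without hypergravity replicate 5 and 6.51 points without hypergravity replicate 4. Because these are shares of one total, the values do not tell more mitochondrial RNA from less RNA of other genes, and in such bulk RNA fewer cells of a type and less RNA per cell cannot be told apart.

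**Figure D1:**
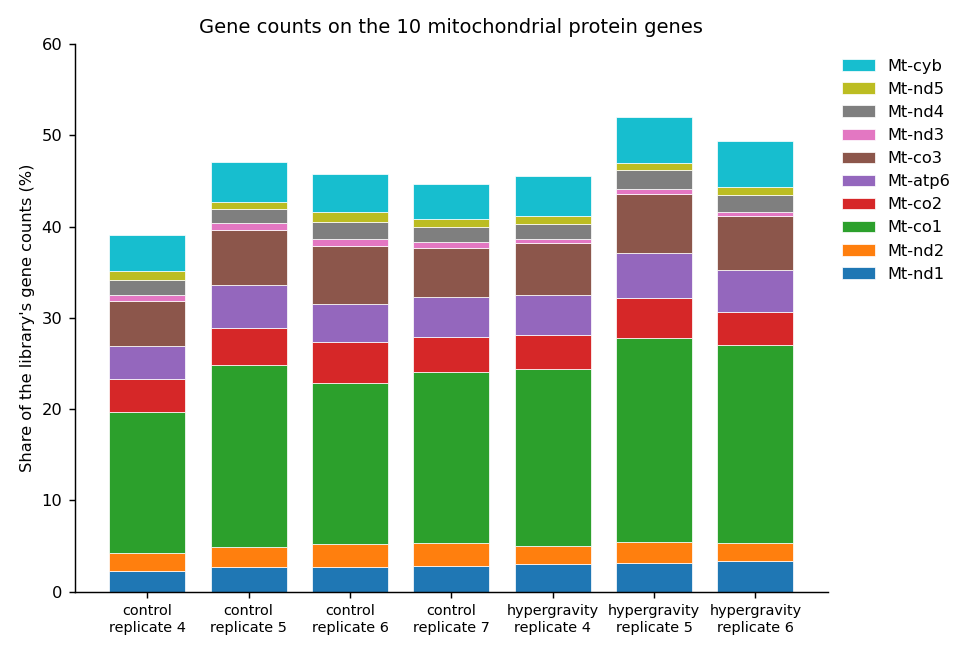
Share of each library's gene counts (%, y axis) on the 10 mitochondrial protein genes, as 1 stacked bar per library, 4 control and 3 hypergravity. The bars reach from 39.1% in control replicate 4 to 52.0% in hypergravity replicate 5, with Mt-co1 as the thickest layer in each bar.

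Between 54231211 and 100702376 reads per library fell on genes, and the smallest count of any of the 10 genes in a library was 212702, where counting error alone is 0.217%. Depth therefore did not limit these values, and the spread between libraries did. Of the 10 identifiers with the highest counts, 8 were among the 10 genes described here in each of the 7 libraries. Other genes of the mitochondrial genome were not named, so they may be among the other identifiers, here and below. Mt-co1 held the highest count of all identifiers in each library and Mt-co3 the next. Mt-nd3 had the lowest count of the 10 genes, at rank 14 to 19 in control and 18 to 23 under hypergravity. Counts follow the length of a message as well as its level, and lengths were not used here, so this is an order of counts and not of levels.

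The study compared the groups to find transcripts that respond to hypergravity. In edgeR's quasi-likelihood test with TMM factors, which scale each library by the genes that differ least between libraries, the estimates of 9 of the 10 genes were above 0 and that of Mt-nd3 was below 0. None of the 10 passed an adjusted p of 0.05 (Benjamini-Hochberg over all genes tested), where 0.528% of all genes passed in either direction. At an unadjusted p under 0.05, 4 of the 10 were higher and 0 lower, against 11.4% of all genes higher. These 4 were Mt-nd1, Mt-co1, Mt-nd4 and Mt-cyb. The number was 2 without hypergravity replicate 5 and 2 without hypergravity replicate 6, and from 3 to 4 without any other single library. DESeq2 put 2 of the 10 past the adjusted threshold, Mt-nd1 (adjusted p = 0.0289) and Mt-cyb (adjusted p = 0.0140), where 5.21% of all genes passed as higher, and limma voom put Mt-nd1 past it (adjusted p = 0.0486), where 7.26% of all genes passed as higher. In TMM-normalized CPM, 5 of the 10 (the same 4 and Mt-co3) had each hypergravity library above each control library, as did 12.5% of all genes.

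Both groups have libraries numbered 4, 5 and 6. Across the genes tested, deviations from the group means correlated positively between libraries of the same number. Pairs with different numbers were not examined, so whether the number marks a true pairing was not tested. With the number as a block over these 6 libraries, 2 of the 10 genes were higher at an adjusted p under 0.05 in the edgeR test, against 6.15% of all genes. They were Mt-nd1, with a log2 difference of 0.63 (standard error 0.17, adjusted p = 0.0267), and Mt-co1, with 0.57 (standard error 0.18, adjusted p = 0.0468). Mt-cyb had an adjusted p of 0.0560 in that fit. Without the block the same 6 libraries gave adjusted p-values of 0.0864 for Mt-nd1 and 0.155 for Mt-co1 in the edgeR test.

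**Figure D2:**
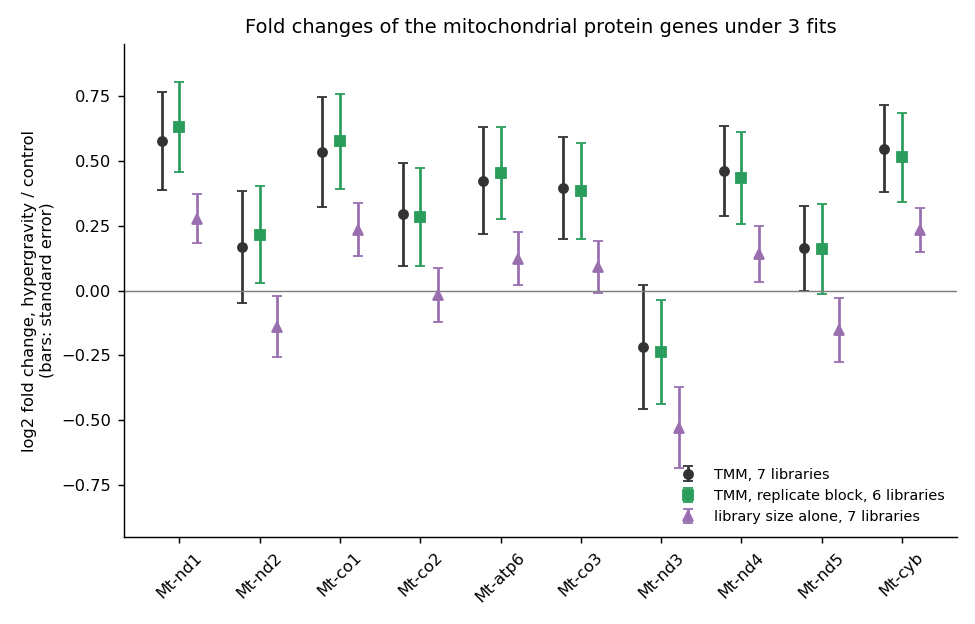
Log2 fold change of hypergravity over control (y axis) with its standard error for each of the 10 genes (x axis), from edgeR with TMM factors on 7 libraries (circles), with the replicate block on 6 libraries (squares) and with library size alone on 7 libraries (triangles). The triangles lie below the circles throughout, and those of Mt-nd2, Mt-co2, Mt-nd3 and Mt-nd5 lie below 0.

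The scaling decided the direction for 3 genes. With library size alone, without TMM factors, the median over all genes was -0.34 on the log2 scale, against -0.017 with TMM factors. Under that scaling the estimates of 6 of the 10 genes stayed above 0. Those of Mt-nd2 (-0.14, standard error 0.12), Mt-co2 (-0.017, standard error 0.10) and Mt-nd5 (-0.15, standard error 0.12) turned below 0, and that of Mt-nd3 was -0.53 (standard error 0.16). Relative to the median of all genes, 9 of the 10 lay above it under either scaling, and Mt-nd3 lay below it. With library size alone, Mt-nd1, Mt-co1 and Mt-cyb were higher at an unadjusted p under 0.05, 3 of 10 against 1.58% of all genes. Mt-nd3 was lower, 1 of 10 against 29.6% of all genes, and no adjusted p of the 10 was under 0.05 (lowest 0.0813, Mt-nd3, edgeR). As plain shares of gene counts, Mt-nd1 and Mt-cyb had each hypergravity library above each control library, 2 of 10 against 2.02% of all genes.

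Among the complex I genes, Mt-nd1, a membrane subunit beside the ubiquinone site, took 2.32%, 2.66%, 2.70% and 2.84% of gene counts in control replicates 4, 5, 6 and 7 and 3.03%, 3.11% and 3.42% in hypergravity replicates 4, 5 and 6. The lowest hypergravity library thus lay above the highest control library. In TMM-normalized CPM its mean was 24284 ± 4860.1 (SD, n = 4) in control and 36213 ± 3139.7 (SD, n = 3) under hypergravity. The log2 estimate for the difference was 0.58 (standard error 0.19, 95% interval 0.15 to 1.01), or 1.49-fold, with an adjusted p of 0.124 in edgeR's test. Without any 1 library the estimate stayed between 0.45 and 0.62, with an unadjusted p under 0.05 in 7 of 7 fits.

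Mt-nd4, a proton-pumping membrane subunit, had TMM-normalized CPM of 12507, 15395, 17538 and 16251 in control replicates 4, 5, 6 and 7, and of 17680.4, 24989 and 21010.4 in hypergravity replicates 4, 5 and 6. The groups were parted by a narrow gap between control replicate 6 and hypergravity replicate 4. The log2 estimate was 0.46 (standard error 0.17, adjusted p = 0.162 in edgeR's test). As a share of gene counts the groups overlapped, from 1.55% to 1.90% in control and from 1.65% to 2.05% under hypergravity.

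Mt-nd3, a small membrane subunit of complex I, stood apart from the other 9. It took 0.557%, 0.703%, 0.768% and 0.646% of gene counts in control replicates 4, 5, 6 and 7 and 0.426%, 0.573% and 0.392% in hypergravity replicates 4, 5 and 6. Hypergravity replicates 4 and 6 lay below each control library, and hypergravity replicate 5 lay just above control replicate 4. In TMM-normalized CPM its mean was 6177 ± 1369 (SD, n = 4) in control and 5312 ± 1461 (SD, n = 3) under hypergravity, a log2 difference of -0.22 (standard error 0.24, 95% interval -0.77 to 0.33, adjusted p = 0.604 in edgeR's test). Without hypergravity replicate 5 the estimate was -0.46, and without hypergravity replicate 6 it was -0.12.

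Mt-nd2, another proton-pumping subunit, took 1.93%, 2.25%, 2.49% and 2.47% of gene counts in the control replicates in order, and 1.94%, 2.36% and 1.93% in the hypergravity replicates. Hypergravity replicates 4 and 6 lay level with control replicate 4, the lowest control. With TMM factors the log2 estimate was 0.17 (standard error 0.22, 95% interval -0.33 to 0.66). Mt-nd5, the subunit at the far end of the membrane arm, took 0.798% to 1.14% in control and 0.826% to 0.924% under hypergravity, with an estimate of 0.16 on that scale (standard error 0.16, 95% interval -0.21 to 0.54). The adjusted p was 0.665 for Mt-nd2 and 0.564 for Mt-nd5 in edgeR's test, and neither interval excludes a change in either direction.

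For complex III, Mt-cyb, which encodes cytochrome b, took 4.03%, 4.31%, 4.16% and 3.82% of gene counts in control replicates 4, 5, 6 and 7 and 4.43%, 4.99% and 4.97% in hypergravity replicates 4, 5 and 6. No hypergravity library lay within the control range. In TMM-normalized CPM its mean was 37374 ± 5299 (SD, n = 4) in control and 54575 ± 6688 (SD, n = 3) under hypergravity, a log2 difference of 0.55 (standard error 0.17, 95% interval 0.16 to 0.93), or 1.46-fold. Mt-cyb had the smallest p of the 10 genes in that edgeR test, with an adjusted p of 0.112, at rank 1252 of the 13258 genes tested. Its unadjusted p was under 0.05 in 7 of 7 fits without 1 library.

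Among the complex IV genes, Mt-co1, the catalytic subunit that holds the oxygen-binding site, took 15.5%, 19.9%, 17.7% and 18.8% of gene counts in control replicates 4, 5, 6 and 7. Under hypergravity it took 19.5%, 22.3% and 21.7% in replicates 4, 5 and 6. On this scale control replicate 5 lay above hypergravity replicate 4, so the groups overlapped. In TMM-normalized CPM the groups did not overlap, with 115492 to 197649 in control and 209178 to 272593 under hypergravity. The estimated log2 difference was 0.54 (standard error 0.21, 95% interval 0.05 to 1.02, adjusted p = 0.176 in edgeR's test). Without any 1 library the estimate stayed between 0.40 and 0.63, with an unadjusted p under 0.05 in 4 of 7 fits.

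Mt-co2, the subunit that accepts electrons from cytochrome c, had TMM-normalized CPM of 26453, 39871, 40744 and 38590.2 in control replicates 4, 5, 6 and 7, and of 39925, 53253 and 40691 in hypergravity replicates 4, 5 and 6. Control replicate 4 lay far below the rest and hypergravity replicate 5 far above. On the log2 scale the difference was 0.29 (standard error 0.20, adjusted p = 0.391 in edgeR's test). Mt-co3, another core subunit, ranged from 37247 to 60757 in control and from 62106 to 78573 under hypergravity, a log2 difference of 0.40 (standard error 0.20, adjusted p = 0.259 in edgeR's test).

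Mt-atp6, the membrane subunit of the ATP synthase proton channel, took 3.64% to 4.67% of gene counts in control and 4.29% to 4.95% under hypergravity. The log2 estimate was 0.42 (standard error 0.21, 95% interval -0.05 to 0.90, adjusted p = 0.249 in edgeR's test). The messages of Mt-atp6 and Mt-atp8 overlap in mammals, as do those of Mt-nd4 and Mt-nd4l, and reads touching more than 1 gene were set aside before counting. Such reads, over all genes, made up 2.49% to 2.93% of the listed reads in control and 2.56% to 2.74% under hypergravity. The part of them that belongs to these genes was not measured.

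**Figure D3:**
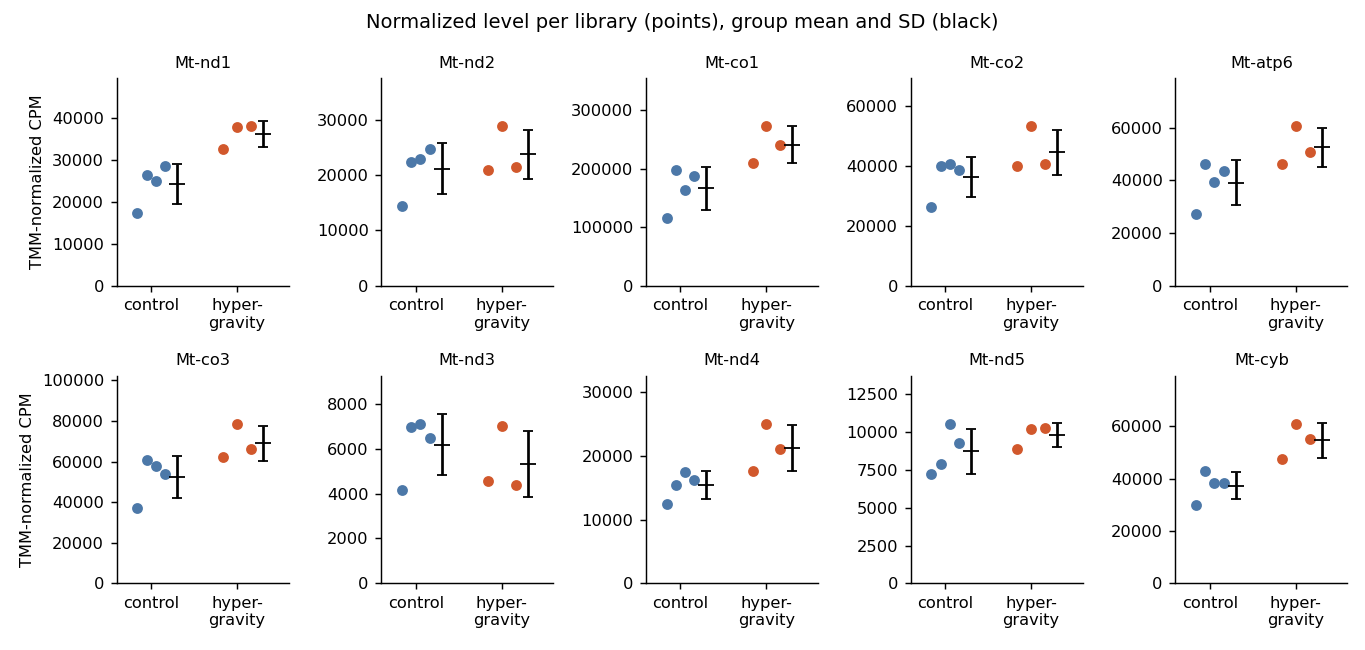
TMM-normalized CPM (y axis, from 0, scaled per gene) of each gene in 4 control (left) and 3 hypergravity libraries (right), 1 point per library in order of replicate number, with the group mean and SD in black. The first control point, replicate 4, is the lowest of all 7 in each panel, and the groups are separate for Mt-nd1, Mt-co1, Mt-co3, Mt-nd4 and Mt-cyb.

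The 10 genes did not keep the same proportions to each other. Each gene was therefore also taken as a share of the summed counts of the 10, a measure that library scaling cannot move. It is given as a description, without a test. Mt-nd3 made up 1.43%, 1.49%, 1.68% and 1.45% of the sum in control replicates 4, 5, 6 and 7 and 0.935%, 1.10% and 0.795% in hypergravity replicates 4, 5 and 6. Its mean was 1.51% ± 0.115 (SD, n = 4) in control and 0.944% ± 0.154 (SD, n = 3) under hypergravity, a ratio of 0.625. Each hypergravity library lay below each control library, so leaving out 1 library could not turn the sign. The difference then ran from -0.65 to -0.49 percentage points.

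Mt-nd2 made up 5.17% ± 0.365 (SD, n = 4) of the sum in control, with a range of 4.79% to 5.53%, and 4.24% ± 0.314 (SD, n = 3) under hypergravity, with a range of 3.91% to 4.54%. Mt-co2 made up 8.96% ± 0.499 (SD, n = 4) and 7.99% ± 0.512 (SD, n = 3), with ranges of 8.55% to 9.63% and 7.41% to 8.39%. Mt-co1 went the other way, with 40.7% ± 1.83 (SD, n = 4) and 43.2% ± 0.625 (SD, n = 3), and ranges of 38.7% to 42.4% and 42.7% to 43.9%. The groups of these 3 genes did not overlap, though the gap was narrow for Mt-co1 and Mt-co2. Without overlap, any pair of libraries must show Mt-nd3, Mt-nd2 and Mt-co2 lower and Mt-co1 higher under hypergravity. Pairs of the same number therefore add nothing for these genes. Among the genes whose groups overlapped, Mt-nd1 was higher in 3 of 3 such pairs, by 0.339 to 1.03 percentage points. Mt-co3 (-1.63 to -0.0641) and Mt-nd5 (-0.654 to -0.0880) were lower in 3 of 3. The sign was mixed for Mt-atp6, Mt-nd4 and Mt-cyb.

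Of the 10 genes, 3 were thus lower and 1 higher with no overlap. When all genes tested were divided by the same sum, 29.2% were lower and 0.4% higher with no overlap. The count of lower genes is near that share. The 10 genes make up the sum and their shares of it cannot all fall, so the comparison is not between like measures. For the other 6 genes the groups overlapped in their share of the sum. Mt-atp6, for one, made up 9.56% ± 0.325 (SD, n = 4) in control and 9.39% ± 0.153 (SD, n = 3) under hypergravity. By complex, the 5 complex I genes made up 18.7% ± 1.20 (SD, n = 4) and 17.3% ± 0.0842 (SD, n = 3) of the sum, and the 3 complex IV genes 62.5% ± 1.12 (SD, n = 4) and 63.6% ± 0.170 (SD, n = 3). The groups overlapped in both.

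**Figure D4:**
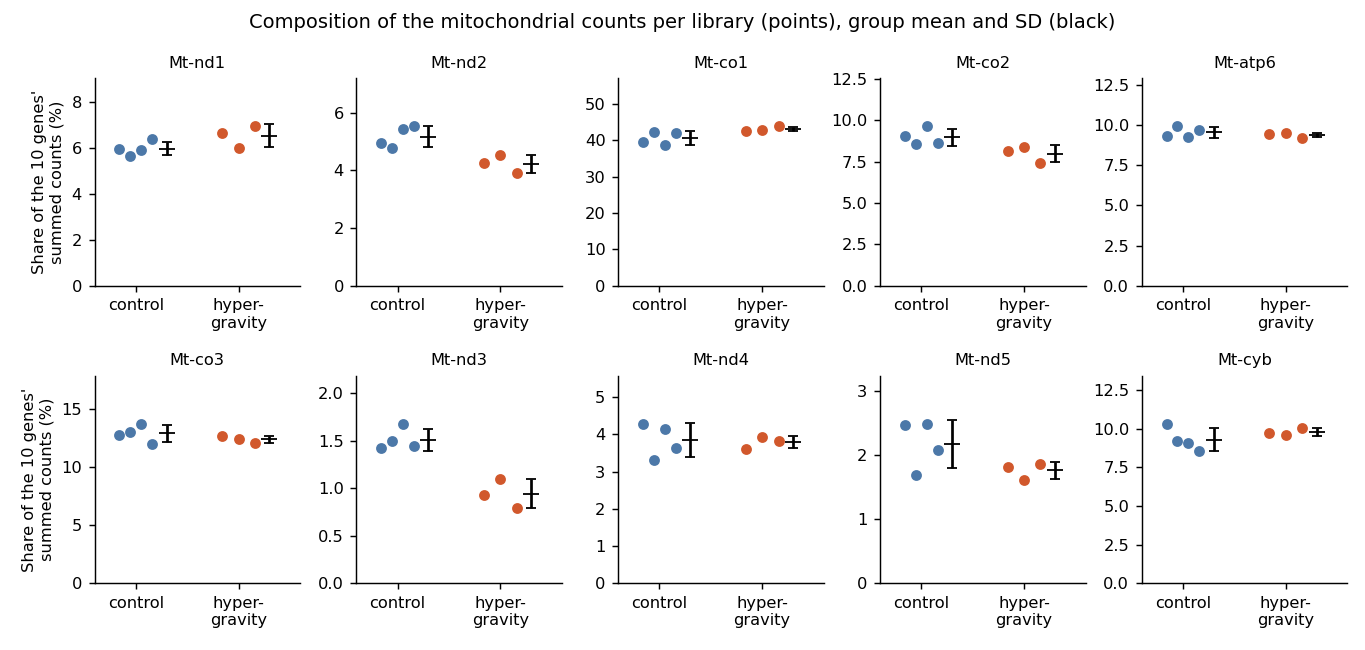
Share of the 10 genes' summed counts (%, y axis, from 0, scaled per gene) held by each gene in 4 control (left) and 3 hypergravity libraries (right), 1 point per library in order of replicate number, with the group mean and SD in black. Mt-nd3 shows the widest gap between groups relative to its level, 1.51% in control against 0.944% under hypergravity, and for Mt-atp6, at 9.56% and 9.39%, the groups overlap.

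Ratios between single genes of 1 complex, picked after the values were seen, describe the same counts from another side. Mt-nd3 counts were 24.0%, 26.5%, 28.4% and 22.7% of Mt-nd1 counts in control replicates 4, 5, 6 and 7, and 14.0%, 18.4% and 11.5% in hypergravity replicates 4, 5 and 6. Mt-nd2 counts were 86.8% ± 3.85 (SD, n = 4) of Mt-nd1 counts in control and 65.4% ± 9.80 (SD, n = 3) under hypergravity, with ranges of 83.3% to 92.1% and 56.4% to 75.9%. Mt-nd5 counts were 56.5% ± 3.68 (SD, n = 4) of Mt-nd4 counts in control and 46.6% ± 5.06 (SD, n = 3) under hypergravity. Mt-co2 counts were 22.1% ± 2.22 (SD, n = 4) of Mt-co1 counts in control and 18.5% ± 1.43 (SD, n = 3) under hypergravity. In these 4 ratios every hypergravity library lay below every control library. In another ratio, Mt-co3 over Mt-co1, the groups overlapped, with 28.6% to 35.4% in control and 27.5% to 29.7% under hypergravity.

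Of the 45 ratios between any pair of the 10 genes, 19 (42.2%) had groups that did not overlap. Among the 4950 ratios between the 100 most abundant other genes the share was 17.1%. The ratios share genes and libraries, so neither share counts independent observations, and the difference was not tested. Mt-nd3 was lower relative to 8 of the other 9 genes with no overlap. Mt-nd2 was lower relative to 6 and higher relative to 1. Most of the 19 ratios thus involved Mt-nd3 or Mt-nd2, so the 42.2% does not describe all 10 genes alike. The share among ratios without Mt-nd3 and Mt-nd2 was not set against that of the other abundant genes. Mt-co1 was higher relative to 4 of the other 9, and Mt-nd1 and Mt-cyb relative to 3 each.

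Across the 7 libraries, Pearson's r between the log2 shares of gene counts of any pair of the 10 genes ran from -0.60, between Mt-nd1 and Mt-nd3, to 0.94, between Mt-co1 and Mt-atp6, with a median of 0.37 over 45 pairs. In TMM-normalized CPM, where both genes of a pair share the factor of their library, r ran from 0.15 to 0.99 with a median of 0.86. The 7 points of each r share their libraries and mix both groups, so these values only describe which genes went together. On the share scale the median r with the other 9 genes was highest for Mt-cyb (0.64) and lowest for Mt-nd5 (-0.12) and Mt-nd3 (-0.0043).

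With TMM factors, but not with library size alone, the estimates of other abundant genes lay mostly above 0, as did those of the 10. With TMM factors the median log2 fold change was 0.41 over the 10 genes, 0.27 over the 100 most abundant other genes, 0.18 over 1316 genes of the highest mean CPM (the 10 left out) and -0.017 over all genes. Of the 100 most abundant other genes, 91.0% had an estimate above 0 and 29.0% were higher at an unadjusted p under 0.05, and none passed the adjusted threshold in edgeR's test. With library size alone 41.0% had an estimate above 0 and 6.00% were higher at an unadjusted p under 0.05. Under that scaling the medians were 0.11, -0.04, -0.13 and -0.34 in the same order. Within the counts outside the 10 genes, the 100 most abundant others held 39.3% ± 1.69 (SD, n = 4) in control and 42.2% ± 0.835 (SD, n = 3) under hypergravity, with each hypergravity library above each control library. Whether the 10 genes differ from other genes of like abundance was not tested.

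**Figure D5:**
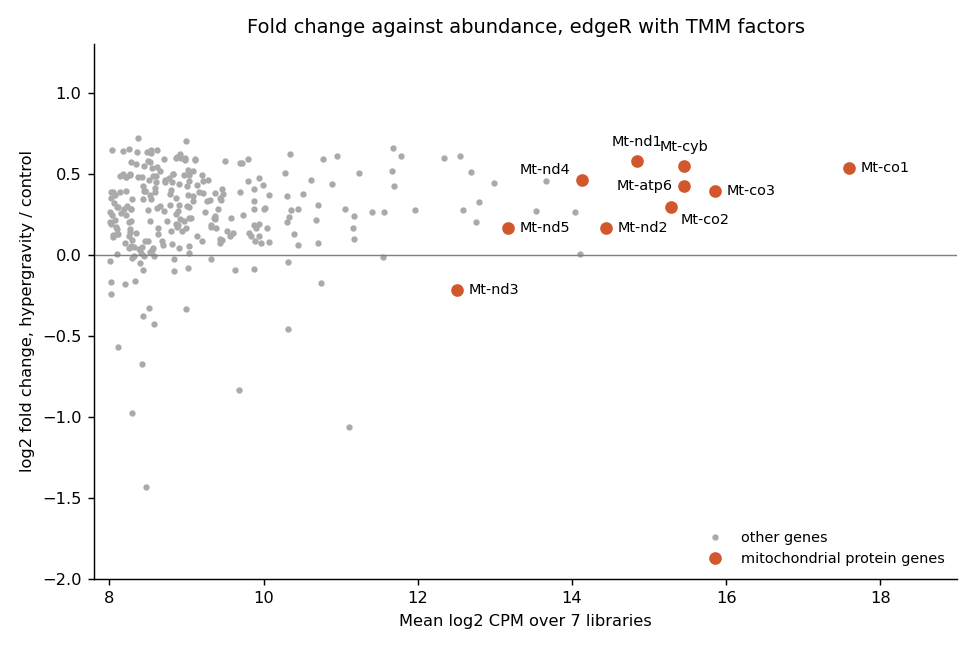
Log2 fold change of hypergravity over control (y axis, edgeR with TMM factors) against mean log2 CPM over the 7 libraries (x axis) for genes whose mean log2 CPM reached 8 or more, with the 10 mitochondrial protein genes as large points and 270 other genes as small ones. Of the 10, Mt-nd3 alone lies below 0, at -0.22, and most of the other genes lie above 0 as well.

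Measures of the libraries moved along with these results. The TMM factor was 1.34 in control replicate 4, 0.997 to 1.08 in the other controls and 0.819 to 0.931 under hypergravity, in reverse order to the summed mitochondrial share at both ends. Control replicate 4 had the lowest summed share and also the largest share of reads outside annotated exons, 4.38%, and hypergravity replicate 5 had the highest summed share, the lowest share of such reads, 3.26%, and the largest total. The part of these measures in the results was not tested. The biological coefficient of variation, edgeR's estimate of spread between libraries, was 15.4% to 22.2% for the 10 genes, against a median of 15.4% for the other genes of highest mean CPM.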

How the data were processed

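Per the labels and the study's methods, poly(A) RNA was sequenced, reads were trimmed with Trimmomatic and Fastp, aligned to mRatBN7.2 with HISAT2 and counted per gene over exons by HTSeq-count without strand. The authors deposited raw counts per Ensembl identifier for each of the 7 libraries, with no normalization. The labels name a stranded library kit and the methods another kit, and the annotation release is not given in the sources used here. Counting without strand cannot separate reads of the opposite mitochondrial strand. Reads that aligned to more than 1 place were not counted.

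From the counts, edgeR 4.0.16 in R 4.3.3 was run on all genes with filterByExpr (minimum count 10, minimum total 15), TMM factors and the robust quasi-likelihood test of group, with Benjamini-Hochberg adjustment over all genes and a threshold of 0.05. The 5 closing lines of unassigned reads, 9.08% to 10.0% of the listed reads per library, stayed out of library sizes and tests. The rule for the 10 genes uses no measured value, but it and the tests were set with earlier results of these data known. The named genes are the 10 and no other. Alternatives were library size alone, upper-quartile factors, TMM without the 10 genes, DESeq2 1.42.0, limma 3.58.1 (voom with quality weights), 2 filters, the shared replicate numbers as blocks, and fits that left out 1 library each. The edgeR fit with TMM factors and group alone was run on simulated counts, and the alternatives were not.

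Between same-numbered libraries, the deviations from the group means across 13258 genes correlated at 0.236, 0.457 and 0.327 for numbers 4, 5 and 6. Correlations between libraries of different numbers were not computed. The numbers come from the sample titles, no source says what they stand for, and another label numbers the libraries without shared numbers. No pair among the 21 pairs of libraries was a repeat (smallest chi-square per degree of freedom 46.7). Lists of nuclear respiratory chain genes, mitochondrial expression factors, other mitochondrial genes and cell markers were planned and not analysed here, since no table used here pairs their identifiers with names. Levels per length were planned and not analysed here, for lack of lengths.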

Additional observations from a re-analysis of the deposited data

Results flagged for a closer look

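Each of 31 measures (3 per gene and the summed share) was examined over the 4 control libraries for a library far from the others, which chance marks in about 1 of 20 groups, or 1.55 of 31. Mt-co2 in TMM-normalized CPM was marked, with control replicate 4 at 26453, against 38590.2 to 40744 in the other controls. In each of the 10 genes control replicate 4 had the lowest TMM-normalized CPM of the controls. Its TMM factor of 1.34, the highest of the 7 libraries, lowers all its values together, so these are not separate observations. As plain shares of gene counts it was not the lowest control for Mt-nd4, Mt-nd5 and Mt-cyb, and it was for the other genes.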

How the results depend on the processing

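None of the 10 genes passed the adjusted threshold in edgeR with TMM factors (4 at an unadjusted p under 0.05), and the number was also 0 with library size alone, upper-quartile factors, TMM without the 10 genes, either other filter and each library left out (range 0 to 0). It was 2 with the replicate block, 2 with DESeq2 and 1 with limma voom, and the cause was not tested. The block changed the calls of Mt-nd1 and Mt-co1 and no other call of the 10. The number at an unadjusted p under 0.05 was 4 (5 with the block, 6 with DESeq2) and ran from 2 to 4 without 1 library, with 2 without hypergravity replicate 5 and 2 without hypergravity replicate 6. Over all genes, the number past the adjusted threshold was 70 in that fit and 10 with library size alone, 2663 with the replicate block, 1475 with DESeq2, 1579 with limma voom and 0 to 590 without 1 library.

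Of 150 log2 fold changes of the 10 genes under alternatives, 3 turned sign, all with library size alone: Mt-nd2 to -0.14, Mt-co2 to -0.017 and Mt-nd5 to -0.15. Calls were gained in 5, for Mt-nd1 with the block, DESeq2 and voom, for Mt-co1 with the block and for Mt-cyb with DESeq2. The difference in summed share ran from 3.13 to 6.51 percentage points without 1 library and was 4.61 with all listed reads as the denominator. Of 70 differences in the share of the sum without 1 library, 3 turned sign, all for Mt-nd4, whose value ran from -0.23 to 0.10 around -0.048 percentage points. For Mt-nd3, Mt-nd2, Mt-co2 and Mt-co1 the sign could not turn, since their groups did not overlap. With 4 and 3 libraries the spread between libraries, not depth, limits these values.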
